A study of Mus musculus with 2 samples.

Results

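The genes described here are *S100a4*, *S100a6*, *S100a10*, *S100a11*, *Lgals1*, *Lgals3*, *Anxa1*, *Anxa2*, *Vim* and *Ahnak*, 10 genes of calcium binding, membrane repair and cell motility that effector T cells express. They were found by their symbols, and all 10 had 1 row each among the 23282 gene rows of the count tables. The tables hold RNA-seq counts of GFP+ cells sorted after transduction of naïve CD4 T cells of *Fak* fl/fl mice with a control retrovirus or with RV-Cre, a retrovirus that carries Cre recombinase. Both cultures grew for 3 days under Th17-polarizing conditions, on coated anti-CD3ε at 10 μg/ml with anti-CD28 in solution at 5 μg/ml. The added factors were IL-6 (50 ng/ml), TGF-β1 (1 ng/ml), TNF-α (1 ng/ml), IL-1β (2 ng/ml) and antibodies to IFN-γ and IL-4 (5 μg/ml each). All cells were floxed and carried a virus, and the genotype field calls the control WT although its title names floxed cells. Donors of naïve CD4 T cells were female and 6 to 8 weeks old by the study's methods, and the number of mice per library is not given in the sources used here. The effects of Cre itself and of *Fak* deletion cannot be told apart, since the control virus lacks Cre. Each condition has 1 library. The differences below are therefore between 2 libraries, without replicates, and carry no p-values.

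As background, S100 proteins are small EF-hand proteins, and most of them change shape when they bind calcium and then dock onto partner proteins. Annexins bind phospholipid membranes in the presence of calcium. S100A10 and annexin A2 form a complex at the plasma membrane to which AHNAK, a giant scaffold protein, is recruited, and S100A11 is a partner of annexin A1. Galectins bind β-galactoside sugars on cell surface proteins and can alter T cell signalling and survival, and vimentin is the main intermediate filament of lymphocytes. Genes of this group are usually low in naïve T cells and high in effector and memory T cells.

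Counted reads came to 13799264 for the control library and 12305010 for RV-Cre. *Rn45s*, a ribosomal RNA precursor, took 8.50% of the control and 14.6% of the RV-Cre reads, and its part in the differences between the libraries was not tested beyond scaling without it. *Ptk2*, the symbol of *Fak*, had 110 control and 31 RV-Cre reads. QuantSeq reads lie close to the 3′ ends of transcripts, and levels of different genes were compared without division by length. Counts were scaled with TMM factors (the trimmed mean of M-values, edgeR). Log2 ratios are RV-Cre minus control on the scale log2(normalized reads + 1), which understates changes of low genes. A gene past the expression minimum has at least 15 normalized reads in at least 1 library, and a gene is called higher or lower here at a ratio of at least 2 on that scale. Each ratio has an exact 95% interval by the Clopper-Pearson method. PCR copies of 1 molecule are not independent reads, and neither these intervals nor the limit set by a count of 0 hold more than counting error. The markers of the labelled cell type were present, with 1489 and 1342 reads of *Cd4*, 1453 and 2884 reads of *Cd3e* and 3662 and 7475 reads of *Cd3d* in the control and RV-Cre libraries.

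Of the 10 genes, 3 were higher in the RV-Cre library by at least 2-fold and 0 lower by that much. Among all 12112 genes past the minimum, 14.2% were higher and 12.3% lower by at least 2-fold. The 3 genes were *Anxa1*, *S100a4* and *Anxa2*. *Lgals3* and *S100a11* were higher by less than 2-fold, *S100a10*, *S100a6* and *Ahnak* had ratios whose intervals included 1, and *Lgals1* and *Vim* were lower by small amounts. The interval lay wholly above 1 for 5 of the 10 genes, against 36.7% of all genes tested, and wholly below 1 for 2 of the 10, against 38.1%. Their median log2 ratio was 0.43, and that of all genes tested was -0.01. *Anxa1* had no read in the control library and passed the minimum through the RV-Cre library alone. Without it, the median of the other 9 genes was 0.12. Scaling to *Gapdh* instead shifted the median log2 ratio of all genes by 0.42 and put 10 of the 10 genes above 0, and other genes named here with a log2 ratio a little below 0, such as *Anxa3*, *Lgalsl*, *Lmnb2* and *Itgb1*, lie within that shift. With a minimum set in both libraries, 2 of 9 of these genes were at least 2-fold higher, and of the 10537 genes that remained 7.19% were higher and 10.4% lower by at least 2-fold.

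**Figure D1:**
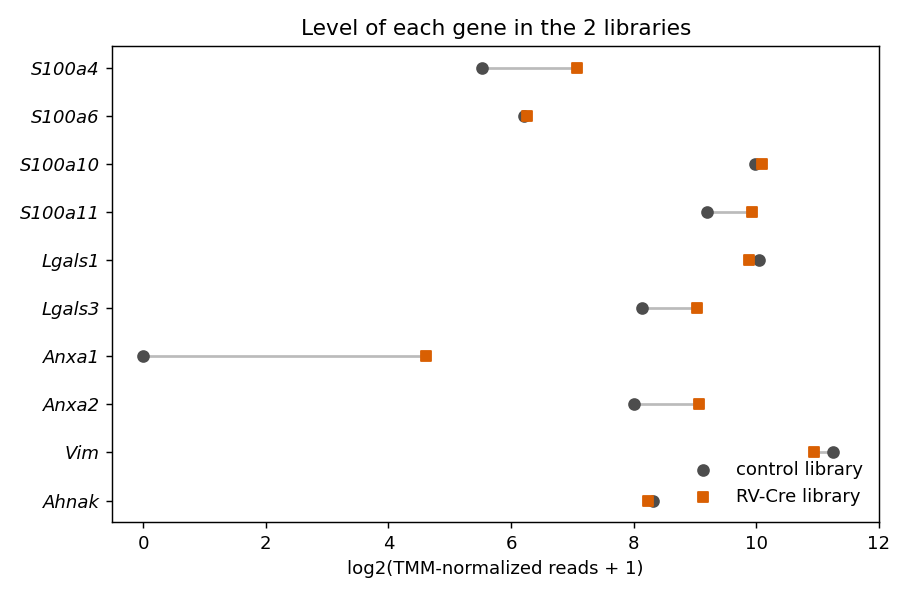
Level of the 10 genes in the control library (grey circles) and the RV-Cre library (orange squares), as log2(TMM-normalized reads + 1) on the horizontal axis. *Anxa1* lies at 0 in the control library, *Vim* is the highest gene in both libraries, and *S100a6*, *S100a10* and *Ahnak* nearly coincide.

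Promoter sequences are shown for genes to which the results return. *S100a4* and *S100a6* lie close together and had different ratios, and *S100a11* and *Anxa2* were both higher in the RV-Cre library. The sequences are from RefSeq on GRCm38.p6 and run 5′ to 3′ from 250 bases before to 50 bases after the start of transcription, all on the plus strand. Capitals mark matches on either strand to AP-1 (TGANTCA) and TATA box (TATAAA) letters, of which the *S100a6* promoter has none.
S100a4, chr3:90603520-90603819: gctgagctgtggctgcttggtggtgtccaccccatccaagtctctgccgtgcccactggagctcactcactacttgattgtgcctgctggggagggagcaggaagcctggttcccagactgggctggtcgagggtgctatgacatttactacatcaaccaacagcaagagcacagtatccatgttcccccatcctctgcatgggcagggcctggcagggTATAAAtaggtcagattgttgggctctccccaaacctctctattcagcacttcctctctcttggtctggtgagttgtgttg
S100a6, chr3:90612644-90612943: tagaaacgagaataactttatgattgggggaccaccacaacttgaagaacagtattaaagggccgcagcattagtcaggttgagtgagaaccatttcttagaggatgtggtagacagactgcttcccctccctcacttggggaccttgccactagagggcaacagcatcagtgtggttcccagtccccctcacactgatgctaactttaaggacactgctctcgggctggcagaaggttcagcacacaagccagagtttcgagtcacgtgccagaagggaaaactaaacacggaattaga
S100a11, chr3:93520246-93520545: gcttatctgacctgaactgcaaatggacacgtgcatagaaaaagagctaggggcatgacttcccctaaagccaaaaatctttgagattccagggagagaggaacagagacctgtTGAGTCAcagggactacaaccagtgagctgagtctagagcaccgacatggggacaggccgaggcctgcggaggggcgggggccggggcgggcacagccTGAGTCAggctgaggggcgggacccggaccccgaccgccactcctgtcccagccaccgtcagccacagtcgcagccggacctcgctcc
Anxa2, chr9:69453433-69453732: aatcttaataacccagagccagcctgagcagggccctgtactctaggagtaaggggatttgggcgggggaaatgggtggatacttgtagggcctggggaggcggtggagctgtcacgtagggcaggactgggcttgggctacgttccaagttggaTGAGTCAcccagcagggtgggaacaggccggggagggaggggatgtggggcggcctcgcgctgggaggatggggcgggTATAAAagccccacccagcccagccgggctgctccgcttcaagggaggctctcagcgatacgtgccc

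A promoter was given for 8 of the 10 genes, and not for *S100a10* and *Lgals1*. The AP-1 letters occurred in 2 of the 8 promoters, those of *S100a11* (at -136 and -38 from the start of transcription) and *Anxa2* (at -95), and in 7.81% of all 32851 promoters of this length. The promoters of *S100a4*, *Anxa1* and *Lgals3*, genes that were also higher in the RV-Cre library, have no AP-1 match. The TATA box letters occurred in 4 of the 8, those of *S100a4*, *Anxa1*, *Anxa2* and *Vim*, and in 13.6% of all promoters. The study asks about NF-κB and STAT3, so a κB consensus and the STAT letters TTCNNNGAA were searched as well. The κB consensus had 1 match, in the *Vim* promoter at -223, and a share of 4.51% over all promoters. The STAT letters had 0 matches in the 8 promoters and a share of 8.30%. CACCC, the letters of Krüppel-like factors, occurred in 5 of the 8 promoters and in 57.5% of all, and the GC box GGGCGG in 4 of the 8 and in 35.7% of all. The AP-1 match of *Anxa2* shares bases with a CACCC match at -90, and no other matches of different motifs overlapped. These matches describe letters in a window and show no binding.

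Among the 4 S100 genes of the 10, *S100a4* had the widest difference. It encodes a protein that binds non-muscle myosin IIA and is linked to motility. There were 48 control and 126 RV-Cre reads of *S100a4*, so the RV-Cre library was the higher. The normalized ratio was 2.96 (95% interval 2.11 to 4.22), so the interval lay wholly above 2-fold, and the log2 ratio of 1.55 was above that of 91.4% of the genes tested. Among the 4178 tested genes with a mean log2 value below 7, the range that holds *S100a4*, it was above 76.8%, and 32.8% of those genes were at least 2-fold higher. The boundary of 7 was chosen after the values were seen. *S100a6*, which encodes calcyclin, had 78 and 71 reads and a ratio of 1.03 (95% interval 0.734 to 1.44). The depth of these few reads does not tell a moderate difference of *S100a6* in either direction from none. The 2 genes lie 6836 bases apart on chromosome 3 (mm10) with *S100a5*, at 0 reads in both libraries, between them, and are transcribed in the same direction, *S100a4* at chr3:90603771-90606045 and *S100a6* at chr3:90612882-90624181. Within the control library there were 0.615 reads of *S100a4* per read of *S100a6* (95% interval 0.420 to 0.893), and within the RV-Cre library 1.77 (95% interval 1.32 to 2.41). The order of the 2 genes was thus opposite in the 2 libraries. Part of the *S100a4* reads is uncertain, because *Gm42674*, an annotated gene on the same strand, overlaps it.

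*S100a10* and *S100a11* form a second pair on the same chromosome, at chr3:93555080-93564643 and chr3:93520488-93526287, 28792 bases apart. *S100a10*, the annexin A2 partner, does not need calcium for that binding. It had 1066 control reads and 1027 RV-Cre reads, and its ratio was 1.09 (95% interval 0.997 to 1.19). *S100a11* had 622 and 921 reads. The RV-Cre library was higher, with a ratio of 1.67 (95% interval 1.51 to 1.85) or 0.74 on the log2 scale. The interval of *S100a11* excluded both 1 and 2 with TMM scaling. Its log2 ratio was 1.16, past the threshold, with scaling to *Gapdh*. Per read of *S100a10* there were 0.583 control and 0.897 RV-Cre reads of *S100a11*, a change of 1.54-fold (95% interval 1.34 to 1.76). A processed pseudogene of *S100a11* is annotated on chromosome 12 and has no row in the tables, so reads that fit both places are uncertain.

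**Figure D2:**
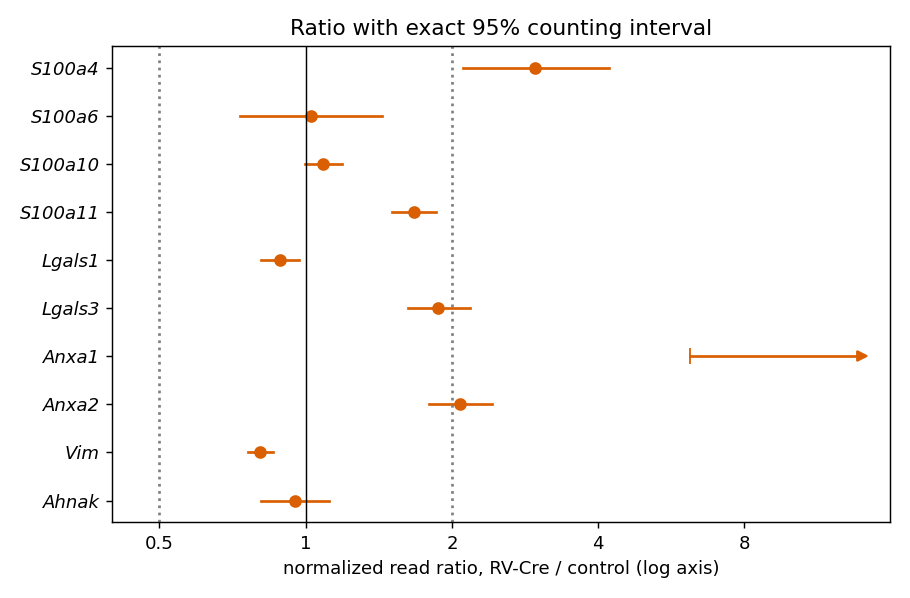
Normalized read ratio of each of the 10 genes, RV-Cre over control, on a log axis. Points are ratios and lines exact 95% counting intervals, the solid line is a ratio of 1 and the dotted lines are 0.5 and 2. The arrow of *Anxa1*, with no control read, starts at the lower bound of 6.18.

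Both annexins were at least 2-fold higher in the RV-Cre library. *Anxa1* encodes annexin A1, which was first described as an inhibitor of phospholipase A2 induced by glucocorticoids and also signals through formyl peptide receptors. It had 0 control reads and 22 RV-Cre reads. Set against the 3 reads that a count of 0 allows in the control library, it was at least 8.28-fold higher, and when counting error of the 22 reads is included too, the 95% interval starts at a ratio of 6.18. Its level in the RV-Cre library, 1.79 counts per 1000000 reads (CPM), was the lowest of the 10 genes. It lies in the same low range as *S100a4*. *Anxa2*, whose protein binds S100A10, actin and membrane phospholipids, had 273 and 503 reads. Its ratio was 2.08 (95% interval 1.79 to 2.42), and its log2 ratio of 1.05 was just inside the threshold. At mean log2 values from 7 upward, 4.39% of 7934 genes were at least 2-fold higher, and *Anxa2* was the 1 of the 7 genes described here in that range that was. An antisense gene, *Gm16144*, overlaps *Anxa2*, and a long non-coding gene on the opposite strand overlaps *Anxa1* (chr19:20373428-20390944). No source states that reads were counted by strand, so part of their reads could come from these genes.

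*Anxa2* and *S100a10* encode the 2 partners of 1 complex, and their reads were compared inside each library, where scaling plays no part. This pair and the other pairs given here were chosen after the values were seen. There were 0.256 reads of *Anxa2* per read of *S100a10* in the control library (95% interval 0.223 to 0.293) and 0.490 in the RV-Cre library (95% interval 0.439 to 0.545), a change of 1.91-fold (95% interval 1.61 to 2.28). *Ahnak*, the scaffold of this complex, had 336 control reads and 283 RV-Cre reads, a ratio of 0.950 (95% interval 0.809 to 1.12). Per read of *S100a10*, the reads of *Ahnak* were 0.315 and 0.276, and the interval of the change, 0.727 to 1.05, included 1. Per read of *Anxa2*, those of *Ahnak* were 1.23 and 0.563. With TMM scaling, of the 3 genes of the complex *Anxa2* alone had an interval that excluded a ratio of 1 between the libraries. This depends on the scaling. With scaling to *Gapdh* the log2 ratios were 1.47 for *Anxa2*, 0.54 for *S100a10* and 0.34 for *Ahnak*, the last 2 beyond their TMM counting intervals.

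**Figure D3:**
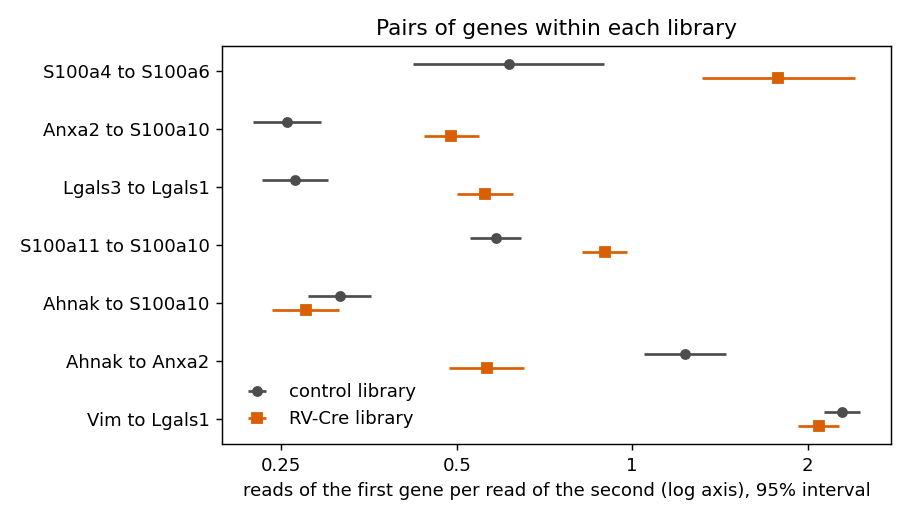
Reads of the first gene per read of the second within the control library (grey circles) and the RV-Cre library (orange squares), on a log axis with exact 95% intervals. The intervals of the 2 libraries do not overlap for *S100a4* to *S100a6*, *Anxa2* to *S100a10*, *Lgals3* to *Lgals1*, *S100a11* to *S100a10* and *Ahnak* to *Anxa2*, and they overlap for *Ahnak* to *S100a10* and *Vim* to *Lgals1*.

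The galectins differed in direction. *Lgals3* encodes galectin-3, which can form lattices on glycoproteins such as the T cell receptor. It had 297 control reads and 494 RV-Cre reads. Its ratio was 1.88 (95% interval 1.62 to 2.17), and its log2 ratio of 0.91 was just outside the threshold. That log2 ratio was 1.01 with quantile normalization and 1.32 with scaling to *Gapdh*, both past the threshold. *Lgals1* encodes galectin-1, a dimer that effector and regulatory T cells release and that can dampen T cell responses. It had 1125 and 883 reads and a ratio of 0.886 (95% interval 0.810 to 0.968), a log2 ratio of -0.17 (0.24 with scaling to *Gapdh*). Within the control library there were 0.264 reads of *Lgals3* per read of *Lgals1*, and within the RV-Cre library 0.559, a change of 2.12-fold (95% interval 1.78 to 2.52). Both genes lie on the plus strand, *Lgals3* at chr14:47367751-47386160 and *Lgals1* at chr15:78926725-78930465. *Lgals1* has 2 annotated processed pseudogenes, *Lgals1-ps1* and *Lgals1-ps2*, neither of which has a row in the tables.

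*Vim* was the gene with most reads of the 10 in both libraries. It had 2577 reads, or 186.7 CPM, in the control library and 1843 reads, or 149.8 CPM, in the RV-Cre library. The ratio was 0.807 (95% interval 0.760 to 0.857) and the log2 ratio -0.31, which became 0.11 with scaling to *Gapdh*. *Vim* took 40.1% of the reads of the 10 genes for control and 29.9% for RV-Cre. Together the 10 genes held 6422 and 6173 reads, that is 0.0465% and 0.0502% of the counted reads. The normalized ratio of these sums was 1.08 (95% interval 1.05 to 1.12).

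The order of the levels changed between *Vim*, the highest gene, and *Anxa1*, the lowest. In the control library *Vim* was followed by *Lgals1* and *S100a10*, whose exact Poisson 95% intervals overlapped (1060 to 1193 and 1003 to 1132 reads), then by *S100a11*. *Ahnak*, *Lgals3* and *Anxa2* came next, each overlapping its neighbour. The intervals of *S100a6* and *S100a4* also overlapped (61.7 to 97.3 and 35.4 to 63.6 reads). Compared directly, though, the 0.615 reads of *S100a4* per read of *S100a6* in that library had an interval below 1 (0.420 to 0.893). In the RV-Cre library *S100a10*, *S100a11* and *Lgals1* followed *Vim*, again each overlapping its neighbour. *Anxa2* and *Lgals3* overlapped and lay above *Ahnak*, and *S100a4* (105.0 to 150.02 reads) lay above *S100a6* (55.5 to 89.6 reads) with no overlap. *Anxa1* was last in both libraries.

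**Figure D4:**
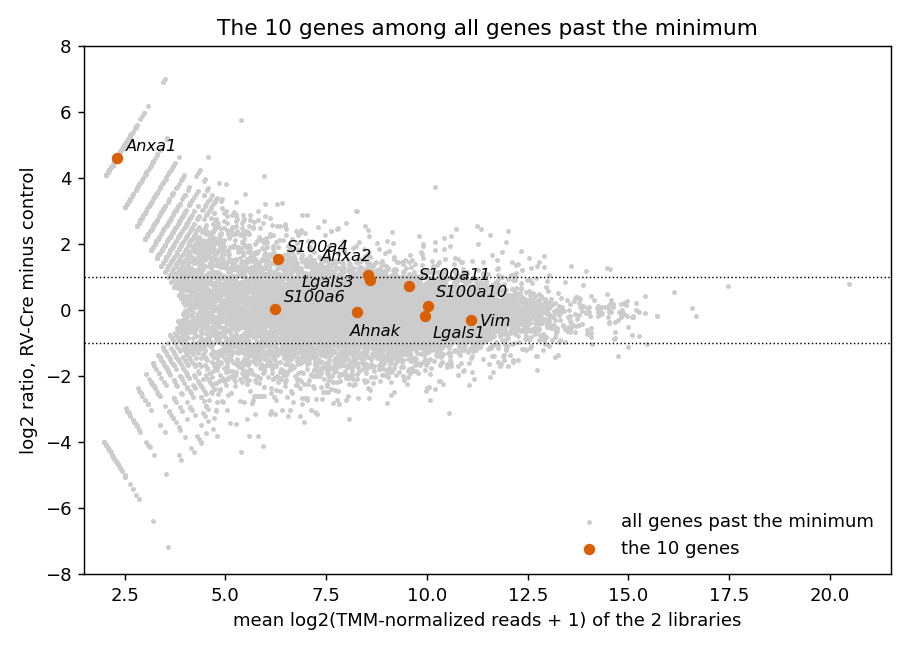
Log2 ratio, RV-Cre minus control, of the 12112 genes past the expression minimum (grey) against their mean log2(TMM-normalized reads + 1), with the 10 genes in orange. Dotted lines mark 2-fold. *Anxa1* lies among the genes with reads in 1 library alone, *S100a4* and *Anxa2* lie above the upper line, and the other 7 lie between the lines.

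For the genes with the largest differences, the nearest other genes in both log2 values, over 2 libraries only, were *Apol7c* and *Pctp* for *S100a4* and *Atraid* and *Acp5* for *Anxa2*. Their distances on the log2 scale were 0.04 and 0.06 for *S100a4*, where 2 genes including *Pctp* tie at the second distance, and 0.05 and 0.07 for *Anxa2*. For *Anxa1*, 8 genes other than *Anxa1* had the same counts of 0 and 22 reads, among them *Gm17751* and *Adra1a*.

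The other members of the 4 families were taken from gene lists. Of 12 other S100 genes with a row, 7 passed the minimum, 5 were higher by 2-fold or more and 0 lower. Of these 5, *S100a8*, *S100a9* and *S100b* passed the minimum through the RV-Cre library alone, and with the minimum in both libraries 2 of 3 were higher, *S100a1* and *S100g*. The mean log2 values of the 5 were below 7, where 32.8% of all tested genes were higher by 2-fold or more. *S100a8*, which encodes a part of calprotectin, had 6 and 69 reads and a log2 ratio of 3.48, and its partner *S100a9* had 7 and 17 reads and a log2 ratio of 1.33. *S100b* had 15 and 91 reads, *S100g* 37 and 95 reads and *S100a1* 20 and 50 reads. *S100a13*, which takes part in the release of proteins that lack a signal peptide, was the other S100 gene with most reads. It had 480 and 777 reads and a log2 ratio of 0.87. *S100a3*, with 16 and 8 reads, was the only one of the 7 with a log2 ratio below 0 (-0.76). *S100b* and *S100g* overlap genes on the opposite strand. Apart from *S100a13*, each of these genes had fewer than 100 reads in either library. Along the cluster on chromosome 3 that holds *S100a4* and *S100a6*, *S100a5*, *S100a7a*, *S100a14* and *S100a16* had 0 reads in both libraries.

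Of 10 other annexins, 7 passed the minimum, 2 were higher by 2-fold or more and 0 lower. The counts became 4 of 7 higher and 0 lower with scaling to *Gapdh*. *Anxa6*, a large annexin that binds membranes and the cytoskeleton, had 1409 control reads and 3529 RV-Cre reads. Its ratio of 2.83 (95% interval 2.66 to 3.01) exceeded that of *Anxa2*, and it had more reads than the other annexins in both libraries. *Anxa11* had 136 and 283 reads and a log2 ratio of 1.23. *Anxa5*, known from its use as a stain for dying cells, had 412 and 587 reads (log2 ratio 0.68), and *Anxa4* 91 and 131 reads (0.69). *Anxa9* (log2 ratio 0.23), *Anxa7* (0.15) and *Anxa3* (-0.12) were nearest to 0. With *Anxa1* and *Anxa2*, 8 of the 9 annexins past the minimum had a log2 ratio above 0 with TMM scaling.

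Of 8 other galectins, 5 passed the minimum, 0 were higher by 2-fold or more and 1 was lower. This was *Lgals7*, with 36 and 15 reads. When the counts were scaled to *Gapdh*, 2 of the 5 were higher by 2-fold or more and 0 lower. *Lgals9*, which encodes galectin-9, had 629 and 627 reads and a log2 ratio of 0.17, and *Lgals8* had 171 and 292 reads and a log2 ratio of 0.94. *Lgalsl* was at -0.16 and *Lgals6*, with 13 and 19 reads, at 0.68. *Lgals3bp*, a glycoprotein that galectin-3 binds, had 567 and 338 reads and a log2 ratio of -0.57.

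Of 11 other intermediate filament and lamin genes, 4 passed the minimum. *Lmnb1* and *Lmnb2*, the B-type lamins of the nuclear envelope, had 9106 and 5468 reads (log2 ratio -0.56) and 876 and 593 reads (-0.39). *Lmna*, the A-type lamin gene, was at least 2-fold higher, with 111 and 205 reads and a log2 ratio of 1.05. *Nefh*, a neurofilament gene, had 1594 and 883 reads and a log2 ratio of -0.68. With TMM scaling *Vim* lay on the same side of 0 as 3 of these 4 genes, and with scaling to *Gapdh* 2 of the 4 were above 0 and 2 below.

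**Figure D5:**
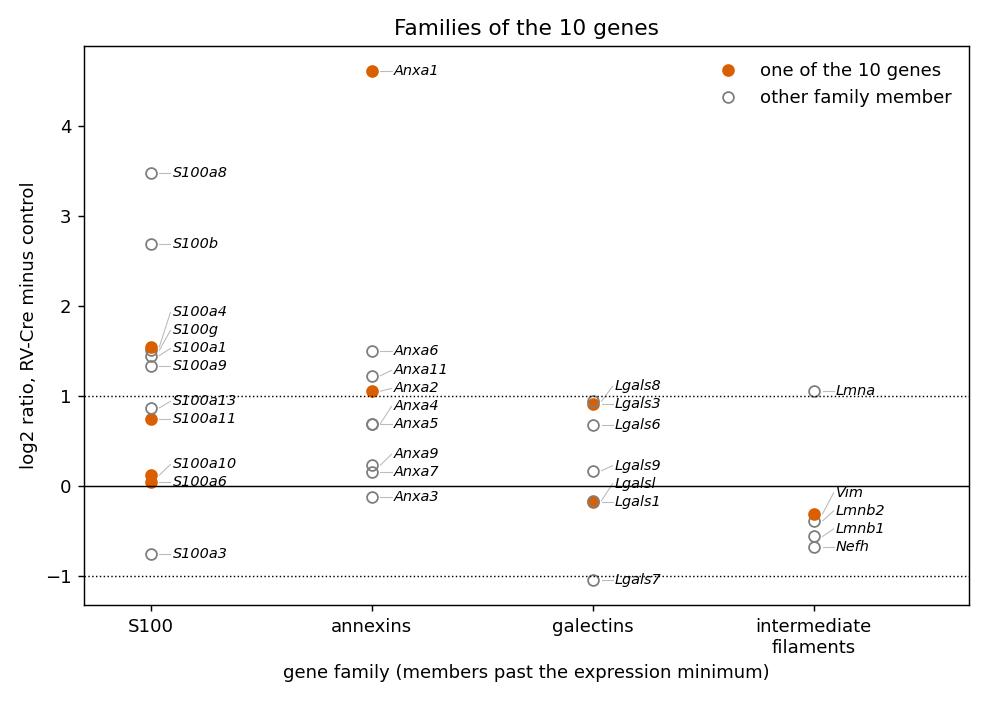
Log2 ratio, RV-Cre minus control, of the S100, annexin, galectin and intermediate filament genes past the expression minimum, 1 column per family. Filled orange points are among the 10 genes and open points are other members, and dotted lines mark 2-fold. Of the other S100 genes 5 of 7 lie above the upper line, 3 of them past the minimum through the RV-Cre library alone, and of the other annexins 2 of 7.

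Partners of these proteins and other genes of the same processes were followed with further lists. Of 12 binding partners and receptors past the minimum, 4 were higher by 2-fold or more and 0 lower. Scaled to *Gapdh*, 6 of the 12 were higher and 0 lower. *Ptprc*, which encodes CD45, a ligand of galectin-1, had 8181 and 18174 reads. *Plec*, a linker of vimentin to other filaments, had 456 and 1280 reads. *Ager*, the receptor RAGE to which several S100 proteins bind, had 38 and 132 reads. *Mgat5*, the enzyme that builds the branched sugars bound by galectin-3, had 5 and 30 reads and passed the minimum through the RV-Cre library alone. *Myh9*, the myosin bound by S100A4, had 8736 and 13967 reads and a log2 ratio of 0.85, and *Cacybp*, a partner of S100A6, had 3362 and 1923 reads and a log2 ratio of -0.63. *Fpr1* had 0 reads in both libraries and *Fpr2*, a receptor of annexin A1, 86 and 67.

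Of 16 membrane repair genes past the minimum, 2 were higher by 2-fold or more and 1 lower. Scaled to *Gapdh*, 5 of the 16 were higher and 1 lower. *Capn2*, a calpain protease activated by calcium, had 343 and 626 reads, and *Syt7*, a calcium sensor of lysosome exocytosis, 10 and 27 reads, past the minimum through the RV-Cre library alone. *Myof*, which encodes myoferlin, had 34 and 7 reads and passed the minimum through the control library alone, and 0 genes of this list were lower with the minimum in both libraries. *Pdcd6*, the calcium sensor ALG-2, and its partner *Pdcd6ip* had log2 ratios of -0.82 and -0.75. Among genes of plasminogen activation, *Serpine2* was at least 2-fold higher (72 and 422 reads). *Plgrkt*, a plasminogen receptor, had 231 and 102 reads and fell just short of the threshold.

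Of 29 genes of the actin cytoskeleton, 1 was higher by 2-fold or more and 1 lower, and the median log2 ratio was 0.10. With scaling to *Gapdh* 10 of the 29 were higher and 1 lower, a scaling with which 2960 of all genes were higher and 780 lower. *Flna*, an actin crosslinker, had 1917 and 3705 reads (log2 ratio 1.12), and *Pfn1*, which binds actin monomers, 2405 and 674 reads (-1.66). *Tln1*, the talin that links integrins to actin, was at 0.96, *Zyx* at 0.95 and *Tmsb4x* at -0.80.

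The other 13 genes of effector and memory T cells had a median log2 ratio of -0.21, with 1 gene at least 2-fold higher and 0 lower. That gene was *Lsp1*, an actin-binding protein of leukocytes, with 1715 and 4138 reads. *Capg* was at -0.90, *Cd44* at -0.80, *Cxcr3* at -0.78 and *Itgb1* at -0.35. *Ccl5*, a chemokine of effector cells, was at 0.69 and *Itgb7* at 0.50. In the same libraries 5 of 9 genes of naïve T cells passed 2-fold upward and 0 downward. Of the 13 effector and memory genes 4 had a log2 ratio above 0 and 9 below with TMM scaling, and of the 9 naïve T cell genes 9 were above 0. With scaling to *Gapdh* the tally of the 13 turned to 10 above and 3 below, with a median of 0.21, and that of the naïve T cell genes stayed at 9 above.

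Several of the 10 genes are also high in myeloid cells and in fibroblasts, so the markers of other cell types were counted. The 10 myeloid markers summed to 135 control reads and 293 RV-Cre reads (9.78 and 23.8 CPM), and 6 passed the minimum, of which 3 were higher by 2-fold or more and 1 lower. *S100a8* and *S100a9* are on this list as well as among the S100 genes, and without them the other 8 markers summed to 122 and 207 reads, with 1 of 4 higher and 1 lower. With the minimum in both libraries 2 myeloid markers were left, of which 1 was higher and 0 lower. *Csf1r* had 16 and 110 reads and *Lyz2*, past the minimum through the control library alone, 22 and 7 reads, while *Elane* and *Mpo* had 0 reads in both libraries. The 7 fibroblast markers summed to 14 and 80 reads, 66 of the latter on *Col1a1*, and *Pdgfrb* had 0 reads in both. The 5 B cell markers summed to 42 and 108 reads, with *Pax5* at 0 in both. The 5 markers of CD8 T and NK cells summed to 696 and 919 reads and went in both directions, with 2 of 3 past the minimum higher by 2-fold or more and 1 lower. *Cd8a* had 322 and 580 reads and *Cd8b1* 122 and 274 reads, while *Klrd1* had 240 and 57 reads and *Klrb1c*, under the minimum, 12 and 0 reads. The part of these cells in the higher reads of *Anxa1*, *S100a4*, *Anxa2* and *Lgals3* was not tested. In bulk RNA, fewer cells that express a gene and less RNA of it per cell cannot be told apart.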

How the data were processed

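Libraries were made by the authors from 500 ng of total RNA with a QuantSeq 3′ kit. The authors deposited raw counts of reads per gene symbol, 1 table per library, without normalization. The submitters' processing notes name bcl2fastq 2.20.0.422, Bowtie2, bedtools and the build mm10. Their settings, the strand option and read filters are not given in the sources used here. Counts were scaled with TMM factors (edgeR 4.0.16, R 4.3.3; size factors 1.06 and 0.941) and 1 was added before log2. The expression minimum was a log2 value of 4 in at least 1 library. Of the 23282 rows, 79 share a symbol with another row, none of them one of the 10 genes. Intervals were computed with scipy 1.17.1. With 1 library per condition no test was run, and the spread between cultures is unknown.

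The procedure was tested on simulated counts for this comparison. It found 200 of 200 genes set 4-fold higher or at 0.25 of their level, and it called 80 unchanged genes among 11697 past the minimum. The genes set to change were drawn only from genes above a minimum of expected reads. Their recovery therefore does not cover genes as low as *Anxa1*. The true ratio lay inside the interval for 95.4% of genes. The simulation holds no spread between cultures, so it checks the arithmetic only.

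The 10 genes and the 15 other gene lists were chosen with earlier results of these data known. Named are the 10 genes, *Ptk2*, all members of the 4 families past the minimum, up to 3 extreme members in each direction of each other list, and the 2 nearest genes of the 3 genes that differed most. Other genes named were chosen after their values were seen. Some genes that this rule names are not reported here. Alternatives were quantile normalization, size factors of DESeq2 1.42.0, median centring, library totals with and without *Rn45s*, scaling to *Gapdh*, pseudocounts of 0.1 and 10, other minimums, fold thresholds of 1.5 and 3, and a 99% interval. Positions are from GENCODE M21 (GRCm38, the assembly of mm10) and promoters from RefSeq GRCm38.p6.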

Additional observations from a re-analysis of the deposited data

How the results depend on the processing

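No paired analysis was possible because the groups hold 1 library each. The depth limits *Anxa1*, *S100a4* and *S100a6* most. The minimum in both libraries, the median without *Anxa1*, the myeloid sum without *S100a8* and *S100a9* and the list counts with scaling to *Gapdh* were chosen after the data were seen. Of the 80 log2 ratios of the 10 genes over 8 scalings and pseudocounts, 70 stayed within the counting interval, 10 lay beyond it and 4 changed sign. Scaling to *Gapdh*, which shifts the median of all genes by 0.42, put *Vim* at 0.11, *Lgals1* at 0.24 and *Ahnak* at 0.34. The counting error of *Gapdh* itself is not in these values. *Ahnak*, whose interval includes a ratio of 1, was also above 0, at 0.02, with library totals without *Rn45s*. *Anxa1* was at 1.74 with a pseudocount of 10 and 7.87 with 0.1.

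The main counts were 3 of the 10 genes higher and 0 lower, and 1720 and 1491 of all genes. The count of 0 lower held under each alternative run. With scaling to *Gapdh* 5 were higher, with 2960 and 780 of all genes, and the median of the 10 genes was 0.85. Without *Anxa1* the median was 0.12. At a fold threshold of 1.5, 5 were higher, with 2847 and 2777 of all genes. At 3, 1 was higher, with 1008 and 669 of all genes. Without a minimum, 3265 of all genes were higher and 2441 lower. Raising the log2 minimum to 6 left 734 higher and 1067 lower. Asking for 4 in each library left 758 higher and 1097 lower. With quantile normalization 4 of the 10 genes were higher, with 1500 of all genes higher and 1608 lower. In these last 3 settings more genes were lower than higher. With TMM scaling a ratio of 1 lay outside the interval for 7 of the 10 genes, at 99% as at 95%.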
